A study of Mus musculus with 12 samples.

Results

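Chromatin accessibility was compared between thymic iNKT1 and iNKT17 cells that lacked Hivep3, to describe how far the difference between these subsets was held without the gene. The comparison set the 2 Hivep3-/- iNKT1 libraries against the 2 Hivep3-/- iNKT17 libraries, over the regions that were accessible in at least 1 of these groups. A region was taken as accessible when the linear mean of its normalized insertions reached 5 per kilobase. Of the 63309 regions of 500 bp in the table, 59142 passed and 4167 did not. The last region to pass had a larger group mean of 5.00024 and the first to fail had 4.99989. Of the regions that passed, 45820 were accessible in both groups.

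Thymic cells of C57BL/6 and of Hivep3-/- mice were profiled by the assay for transposase-accessible chromatin with sequencing (ATAC-seq), in which Tn5 transposase inserts adapters where DNA is open. There were 2 libraries for each of iNKT1, iNKT2 and iNKT17 cells and each genotype, 12 in all, from untreated mice that were 8 to 9 weeks old and shared the C57BL/6 background. The iNKT1 cells were sorted as CD122+ ICOS-, the iNKT17 cells as CD122- ICOS+ Izumo1r- CD138+ and the iNKT2 cells as CD122- ICOS+ Izumo1r+ CD138-. Thymi were pooled before sorting, and the 3 subsets shared a transposition reaction before they were separated again on ICOS and CD138. The labels give the knockout as the genotype of the animal and name no cell type for it. The sample titles number single mice, so it is not settled whether a library stands for a mouse or a pool, and p-values measured the spread between these libraries only. With 2 libraries against 2, an exact two-sided permutation test of a single region cannot go below 0.333, so the tests below come from limma, which pools the spread over regions and groups.

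Invariant NKT cells are T cells with a nearly fixed antigen receptor that see lipids on CD1d, and they acquire effector programs in the thymus under the transcription factor PLZF, encoded by Zbtb16. The iNKT1 subset expresses T-bet (Tbx21), makes IFN-γ and carries receptors typical of NK cells. The iNKT17 subset expresses the receptors for IL-23 and IL-1, and makes IL-17. Hivep3 belongs to a family of large zinc finger proteins that bind NF-κB-like DNA elements. Open chromatin at a gene marks promoters and enhancers that proteins can reach, and it is not a measure of the RNA.

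Stretches of 200 bases from 8 of the regions are printed here as examples of regions described below. They were read from mm10, plus strand, 5′ to 3′, and none overlaps an annotated exon. In capitals is the match to a motif, spelled as it reads on the plus strand. The first 3 show a T-box motif (AGGTGTGA or its reverse complement TCACACCT), the element that T-bet and Eomes bind. The next 3 show a ROR motif (TAGGTCA or TGGGTCA, or the reverse complements TGACCTA and TGACCCA), the element of RORα and its relatives. The last 2 show an E-box (CAGGTG) and a Runt motif (AACCACA). Widened, narrowed and turned describe how the subset difference changed in the knockout and are defined below.
Nkg7 promoter, higher in iNKT1, chr7:43436471-43436670: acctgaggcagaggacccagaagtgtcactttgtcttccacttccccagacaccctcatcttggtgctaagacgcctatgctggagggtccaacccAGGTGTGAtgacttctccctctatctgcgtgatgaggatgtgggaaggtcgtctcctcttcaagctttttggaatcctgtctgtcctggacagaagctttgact
Ifng upstream, higher in iNKT1, chr10:118435533-118435732: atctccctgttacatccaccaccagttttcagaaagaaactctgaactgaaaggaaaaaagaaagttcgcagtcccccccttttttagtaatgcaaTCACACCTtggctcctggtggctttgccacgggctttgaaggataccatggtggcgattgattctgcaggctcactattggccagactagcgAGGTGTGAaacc
Cxcr3, higher in iNKT1 and narrowed, chrX:101737273-101737472: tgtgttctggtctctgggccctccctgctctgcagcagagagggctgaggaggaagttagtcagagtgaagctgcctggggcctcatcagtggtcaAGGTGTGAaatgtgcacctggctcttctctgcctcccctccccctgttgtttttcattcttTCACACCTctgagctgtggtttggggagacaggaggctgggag
Il23r intron, higher in iNKT17, chr6:67483220-67483419: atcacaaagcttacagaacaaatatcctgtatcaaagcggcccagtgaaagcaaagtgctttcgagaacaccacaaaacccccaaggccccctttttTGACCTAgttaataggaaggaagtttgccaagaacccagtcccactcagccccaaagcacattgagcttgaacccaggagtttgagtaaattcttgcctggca
Il1r1 intron, higher in iNKT17, chr1:40230116-40230315: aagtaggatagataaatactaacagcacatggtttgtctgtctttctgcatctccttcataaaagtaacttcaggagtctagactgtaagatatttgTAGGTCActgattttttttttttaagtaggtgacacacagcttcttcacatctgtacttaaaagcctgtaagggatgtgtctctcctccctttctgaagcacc
Il17a upstream, higher in iNKT17 and narrowed, chr1:20725852-20726051: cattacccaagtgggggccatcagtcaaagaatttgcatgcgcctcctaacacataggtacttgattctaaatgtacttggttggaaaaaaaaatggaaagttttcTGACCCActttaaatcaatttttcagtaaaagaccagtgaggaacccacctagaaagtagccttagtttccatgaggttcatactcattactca
Runx3, widened, chr4:135114684-135114883: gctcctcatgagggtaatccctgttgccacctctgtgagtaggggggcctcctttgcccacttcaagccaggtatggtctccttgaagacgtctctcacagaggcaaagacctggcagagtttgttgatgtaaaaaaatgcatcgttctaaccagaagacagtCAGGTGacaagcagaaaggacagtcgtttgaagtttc
Tox2 intron, widened, chr2:163299081-163299280: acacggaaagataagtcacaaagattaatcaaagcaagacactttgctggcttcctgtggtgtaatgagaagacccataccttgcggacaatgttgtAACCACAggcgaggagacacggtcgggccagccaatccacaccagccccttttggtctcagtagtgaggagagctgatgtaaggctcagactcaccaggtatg

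The Hivep3 locus itself was looked at first. It held 21 regions within its body or 10 kb of it, all labelled as intron or promoter. The promoter label took precedence over exon, so a promoter region can overlap an exon. The part of the gene that the allele removes is not given in the sources used here, so accessibility could not serve as a check of the knockout. The promoter region at chr4:119733529-119734028 lay between 6.36 and 6.72 in all 12 libraries on the log2 scale of normalized insertions per kilobase, the scale of every level given below. In Hivep3-/- cells 8 of the 21 regions were higher in iNKT1 and 1 was higher in iNKT17, by the call defined below. All regions tested in the knockout had 9.48% and 9.83%. In C57BL/6 cells 6 were higher in iNKT1, beside 9.72% of all regions tested there. A region in an intron at chr4:119921048-119921547 had 4.11 and 4.28 in the Hivep3-/- iNKT1 libraries and 1.88 and 2.45 in the iNKT17 libraries, while the C57BL/6 libraries lay at 2.75 and 3.03 and at 2.55 and 2.65. The subsets thus stood apart in the knockout and lay close together in C57BL/6 mice, with a difference between the genotypes of 1.74 ± 0.35 (SE; limma adjusted p = 0.023). That call was lost without Hivep3-/- iNKT1 library 2 or Hivep3-/- iNKT17 library 1, with a range of 1.46 to 2.03 over the fits without 1 library.

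As the deposited values are normalized, the number of insertions is unknown. The number of different values at or below a library's median grows with depth and was 227 and 491 in the Hivep3-/- iNKT1 libraries, 85 and 73 in the Hivep3-/- iNKT17 libraries and 134 to 170 in the C57BL/6 libraries of these subsets. The knockout iNKT17 libraries therefore had the coarsest low values, and their lowest values were -3.06 and -2.58 against -4.05 and -4.31 in the knockout iNKT1 libraries. A difference against a group with both libraries at their lowest value has no fixed size, and where one is given its dependence on that value is stated beside it. Fewer cells with an open region and less opening in each cell cannot be told apart in such bulk samples.

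The knockout subsets differed at a large share of the regions. A region was called when the limma adjusted p was under 0.1 and the difference of the log2 group means was at least 3-fold. In Hivep3-/- mice 5606 regions were higher in iNKT1 (9.48% of the 59142 tested) and 5815 were higher in iNKT17 (9.83%). In each of these regions both libraries of the higher subset lay above both of the other. The call was made on these same libraries, so this separation follows largely from it and is no separate support. The median linear level of the regions higher in iNKT1 was 15.3 in that subset and 2.43 in iNKT17. For the regions higher in iNKT17 it was 16.3 in that subset and 1.93 in iNKT1. In 4315 and 4612 of them the lower subset was under the accessibility level, so these had entered through the subset in which they were high.

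The same comparison in C57BL/6 mice called 5766 of 59317 regions higher in iNKT1 (9.72%) and 6402 higher in iNKT17 (10.8%). In both genotypes 4350 regions were higher in iNKT1, which was 77.6% of the knockout calls and 75.4% of the C57BL/6 calls. For iNKT17 it was 4926 regions, 84.7% and 76.9%. Only 1 region was called in opposite directions. Of the regions called in the knockout and not in C57BL/6, 1183 of 1256 on the iNKT1 side and 880 of 889 on the iNKT17 side had the same sign in C57BL/6. Of those called in C57BL/6 only, 1410 of 1416 and 1397 of 1476 had the same sign in the knockout. The median difference of the knockout iNKT1 calls was 2.58 in the knockout and 2.54 in C57BL/6, and that of the iNKT17 calls was -2.97 and -3.01 (log2).

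The distance between iNKT1 and iNKT17 libraries over all regions was 422 to 430 in Hivep3-/- mice and 432 to 443 in C57BL/6 mice, against 79.2 to 119 between libraries of a single group. The differences of both genotypes correlated with a Pearson r of 0.948 and a Spearman rho of 0.896 over 57916 regions, which are not independent replicates and share the sort and the normalization. The correlation of the differences taken within library 1 and within library 2 was 0.956 in each genotype.

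**Figure D1:**
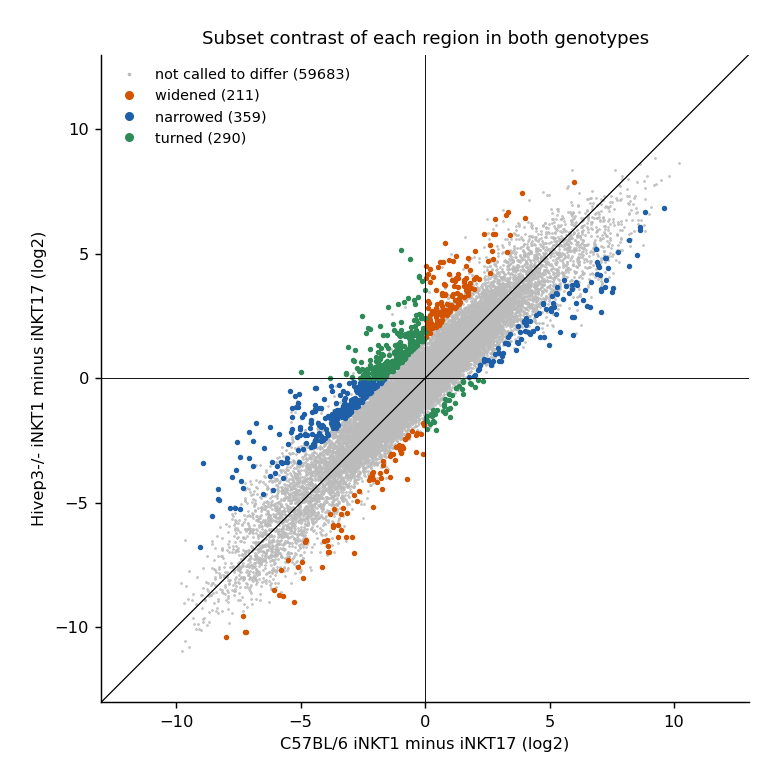
Difference between iNKT1 and iNKT17 in Hivep3-/- cells (vertical) against that in C57BL/6 cells (horizontal), both as log2 differences of group means, with 1 point per region and colours for the widened, narrowed and turned regions. The points follow the diagonal (r = 0.948), and the 860 coloured regions lie off it.

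A difference was counted as kept when it was called in the same direction in both genotypes and the 95% interval of the change between genotypes stayed within 3-fold either way. By this rule 4429 regions were kept, 2282 higher in iNKT1 (52.5% of those called in both) and 2147 higher in iNKT17 (43.6%). A further 1978 and 2647 regions were called in both genotypes, but the interval was too wide to call them kept and no change was called either. The change itself, which is the interaction of genotype and subset, was called for 860 of 60543 regions: 211 widened (0.349%), 359 narrowed (0.593%) and 290 turned (0.479%). Widened and narrowed regions had the same sign in both genotypes and a larger or smaller difference in the knockout, and turned regions had opposite signs. Turned does not mean that the subset difference was called: 219 of the 290 had none called in the knockout, and 144 had none called in either genotype. Each was called at the same adjusted p and at a change of at least 3-fold.

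Around the transcription factors of iNKT1 cells, 36 of 106 regions were higher in iNKT1 (34.0%) and 6 were higher in iNKT17 (5.66%) in the knockout. All regions tested had 9.48% and 9.83%. The median difference was 0.50 beside 0.02 over all regions tested. The C57BL/6 counts were 32 and 5 and the median was 0.66. Tbx21, which encodes T-bet and marked the subset, had 8 of 12 regions higher in iNKT1 and none higher in iNKT17. Its lead region, the called region with the largest difference, lay in an intron at chr11:97109577-97110076. It had 4.62 and 4.65 in the knockout iNKT1 libraries while both knockout iNKT17 libraries were at their lowest value. The C57BL/6 libraries had 4.28 and 4.40 in iNKT1 and -1.38 and -2.29 in iNKT17, so the groups did not overlap in either genotype. All 9 regions around Zfp683, which encodes Hobit, a factor of tissue-resident lymphocytes, were higher in iNKT1 in both genotypes, and 6 of them were kept. The largest difference there was at chr4:134047604-134048103, 5.99 kb from the start site, with 6.34 and 6.23 in iNKT1 and 0.38 and -1.06 in iNKT17 libraries of the knockout. It came to 6.62 ± 0.45 (SE; limma adjusted p = 7.68e-08) in the knockout and 8.20 in C57BL/6.

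Stat4, which carries the IL-12 signal, held a pair of neighbouring intron regions, 1 kept and 1 called as narrowed. The first, chr1:52034818-52035317, had 5.95 and 5.80 in knockout iNKT1 and -1.52 and -0.55 in knockout iNKT17 libraries, and its difference of 6.91 ± 0.39 was kept beside 7.27 in C57BL/6. The second, chr1:52035320-52035819, had 0.57 and 0.19 in knockout iNKT17 libraries and -0.78 and -1.15 in C57BL/6 iNKT17 libraries, while iNKT1 libraries of both genotypes lay between 5.56 and 5.97. Its difference narrowed from 6.86 to 5.21 (limma adjusted p = 0.076 for the change). That call was lost without Hivep3-/- iNKT1 library 1 or 2, Hivep3-/- iNKT17 library 1, C57BL/6 iNKT1 library 1 or 2 or C57BL/6 iNKT17 library 2, and with a pseudocount of 1 (-0.91) or 5 (-0.47). Hopx, a homeodomain protein found in long-lived effector cells, had 3 regions higher in iNKT1 and 2 higher in iNKT17, with 5.23 ± 0.34 at its lead region chr5:77091762-77092261. Eomes, the T-box relative of T-bet, had 3 of 7 regions called higher in iNKT1 in the knockout and none in C57BL/6. At the Eomes promoter (chr9:118478386-118478885) the knockout libraries had 3.19 and 3.68 in iNKT1 and 0.57 and 0.63 in iNKT17, and the C57BL/6 libraries had 2.33 and 2.61 and 1.56 and 0.55. The subsets were apart in both genotypes, and the change of 1.42 ± 0.51 was not called (adjusted p = 0.205).

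Runx3, a Runt factor of cytotoxic lymphocytes, had 6 regions higher in iNKT1 and 3 higher in iNKT17 among 23, beside 4 and 2 in C57BL/6. Its widened region is the E-box sequence printed above, within chr4:135114384-135114883, 6.02 kb from a Runx3 start site. It had 5.03 and 5.16 in knockout iNKT1 libraries and 1.59 and 1.23 in knockout iNKT17 libraries, and 4.20 and 4.72 against 2.86 and 2.94 in C57BL/6. Both knockout iNKT17 libraries lay below both C57BL/6 iNKT17 libraries and both knockout iNKT1 libraries lay above the C57BL/6 ones, and the difference grew from 1.56 to 3.69 (2.13 ± 0.36 for the change, adjusted p = 0.0109). Irf8 and Bhlhe40 had 2 and 1 regions higher in iNKT1. Id2, an inhibitor of E proteins, had 1 region higher in iNKT17, which was kept, and Prdm1, which encodes Blimp-1, had none called in the knockout.

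The receptors of iNKT1 cells leaned to the iNKT1 side in both genotypes. Of 81 regions 27 were higher in iNKT1 (33.3%) and 1 was higher in iNKT17 (1.23%) in the knockout. All regions tested had 9.48% and 9.83%. The C57BL/6 counts were 34 and 2, and the median differences were 0.91 in the knockout and 0.80 in C57BL/6. By the rule above 8 regions were kept and 2 narrowed, and 3 of the 10 genes had a median below 0 in the knockout. Il12rb2, a chain of the IL-12 receptor, had 9 of 11 regions higher in iNKT1 and 10 in C57BL/6. Its lead region chr6:67367091-67367590 had 5.15 and 5.03 in knockout iNKT1 libraries, with both iNKT17 libraries at their lowest value in each genotype. Ifngr1 and Il10ra, receptor chains for IFN-γ and IL-10, had 4 regions each higher in iNKT1 in the knockout and 7 each in C57BL/6, and Il12rb1, Il15ra and Cxcr6 had none called in either genotype.

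Cxcr3, a chemokine receptor of type 1 cells, had 5 of 6 regions higher in iNKT1 in both genotypes, and the difference narrowed at 1 of them. That region, chrX:101737073-101737572, holds the Cxcr3 sequence with a pair of T-box matches printed above. The knockout iNKT1 libraries had 5.80 and 5.83 and the C57BL/6 ones 6.19 and 6.22, whereas the iNKT17 libraries had 1.74 and 0.97 in the knockout and -0.41 and -1.15 in C57BL/6. The iNKT17 libraries of the genotypes did not overlap, and the difference fell by 2.52 from 6.98 to 4.46 (SE 0.39; limma adjusted p = 0.00654). It was called in each of the 8 fits without 1 library and not with a pseudocount of 1 or 5.

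The effector genes of iNKT1 cells had the highest share of called regions among the lists. In the knockout 44 of 57 regions were higher in iNKT1 (77.2%) and 0 higher in iNKT17, beside 9.48% and 9.83% of all regions tested. The C57BL/6 counts were 42 and 1, and the median differences were 4.56 and 4.43. At the Ifng promoter (chr10:118440640-118441139) the knockout libraries had 6.47 and 6.26 in iNKT1 and -0.41 and -0.10 in iNKT17, and the C57BL/6 libraries had 6.48 and 6.40 and 0.18 and 0.91. The subsets did not overlap and the difference of 6.62 ± 0.24 (SE; limma adjusted p = 5.58e-10) was kept beside 5.89 in C57BL/6. The upstream Ifng region with 2 T-box matches in the printed sequence had a difference of 6.19 in the knockout and 8.54 in C57BL/6. All 5 Ifng regions tested were higher in iNKT1 in the knockout. A sixth, chr10:118454046-118454545, was under the accessibility level in both knockout subsets and is described with the turned regions.

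Nkg7, a granule membrane protein of cytotoxic cells, had 5 of 6 regions higher in iNKT1, and 4 were kept. At its promoter region chr7:43436792-43437291 the knockout libraries had 7.30 and 7.22 in iNKT1 and 1.88 and 0.97 in iNKT17, and the C57BL/6 libraries had 7.32 and 7.19 and 1.29 and 0.97. The subsets did not overlap, and the difference of 5.84 ± 0.25 was kept beside 6.13 in C57BL/6. The adjoining promoter region that holds the printed Nkg7 sequence had 5.02 and 5.26. Gzma, which encodes granzyme A, and the chemokine genes Xcl1 and Ccl5 had every tested region higher in iNKT1 in the knockout, 5 of 5, 5 of 5 and 7 of 7. At the Xcl1 lead region chr1:164930966-164931465 the knockout iNKT1 libraries had 5.68 and 6.35 and both knockout iNKT17 libraries were at their lowest value, as they were at the Ccl5 lead region chr11:83536957-83537456 beside 5.59 and 5.50 in iNKT1. Ccl3 and Ccl4, whose loci share regions, had 5 of 5 and 2 of 2 regions higher in iNKT1.

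Prf1, which encodes perforin, and Fasl, a death ligand, showed smaller differences in the knockout. At the Prf1 promoter (chr10:61297425-61297924) iNKT1 libraries had 5.95 and 5.89 in the knockout and 5.95 and 5.73 in C57BL/6, and iNKT17 libraries had 3.80 and 3.54 and 2.49 and 2.39. The change of -1.14 ± 0.30 had an adjusted p of 0.0786 and did not reach 3-fold. At Fasl (chr1:161776693-161777192) the iNKT17 libraries had -0.10 and 0.19 in the knockout and -3.12 and -2.29 in C57BL/6, below the iNKT1 libraries in both genotypes, and the difference narrowed from 6.95 to 4.56 (adjusted p = 0.0885). This change was lost without Hivep3-/- iNKT1 library 1 or 2, Hivep3-/- iNKT17 library 1 or 2, C57BL/6 iNKT1 library 1 or 2 or C57BL/6 iNKT17 library 1, with a range of -2.81 to -1.98 over the fits without 1 library.

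The NK receptor genes, which iNKT1 cells share with NK cells, had 42 of 66 regions higher in iNKT1 (63.6%) and 0 higher in iNKT17 in each genotype. All regions tested in the knockout had 9.48% and 9.83%. The medians were 3.00 in the knockout and 2.68 in C57BL/6. No region of these genes was widened, narrowed or turned, and 10 were kept. Klrd1 (CD94) had 9 of 10 regions higher in iNKT1 and Klre1, whose locus shares regions with it, had 10 of 10. At the Klrd1 promoter (chr6:129594895-129595394) the knockout iNKT1 libraries had 3.93 and 4.08, and both knockout iNKT17 libraries were at their lowest value. Klrb1c, which encodes NK1.1, had 5.69 and 5.48 in iNKT1 and -0.10 and 0.19 in iNKT17 libraries of the knockout at chr6:128790419-128790918, a difference of 5.54 ± 0.70 beside 6.80 in C57BL/6. Slamf7 had 8 of 9 regions higher in iNKT1, and the difference of 4.71 ± 0.24 at chr1:171629126-171629625 was kept. Ncr1 had no region in the table.

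**Figure D2:**
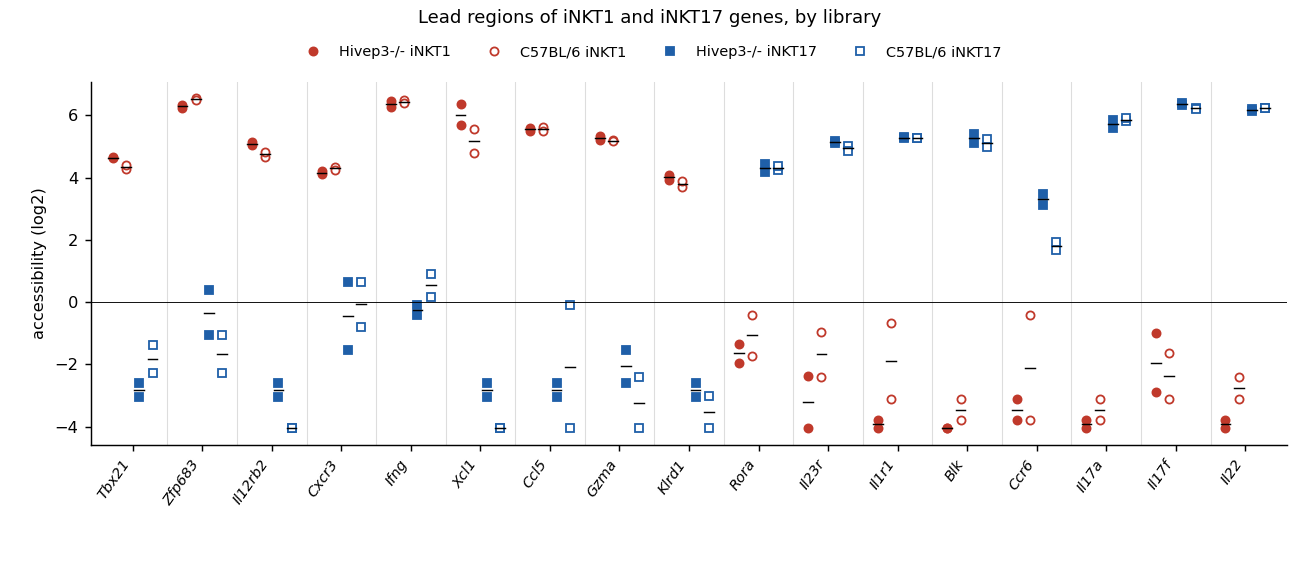
Lead regions of 17 subset genes, with 1 point per library on the log2 scale of normalized insertions per kilobase (vertical) for the 4 groups of iNKT1 and iNKT17 cells of each genotype (horizontal). Genes of the iNKT1 list lie high in both iNKT1 groups and those of the iNKT17 list in both iNKT17 groups, and the libraries of the subsets do not overlap in either genotype.

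Around the transcription factors of iNKT17 cells, 36 of 87 regions were higher in iNKT17 (41.4%) and 4 were higher in iNKT1 (4.60%) in the knockout. All regions tested had 9.83% and 9.48%. The C57BL/6 counts were 29 and 4, and the medians were -1.21 in the knockout and -0.75 in C57BL/6. Rora, which encodes RORα, had 18 of 41 regions higher in iNKT17 and 1 higher in iNKT1 in the knockout, beside 13 and 2 in C57BL/6, and 8 were kept. The largest difference was -5.96 ± 0.51 at chr9:69331295-69331794, with -1.35 and -1.94 in iNKT1 and 4.45 and 4.18 in iNKT17 libraries. A pair of Rora intron regions turned, in opposite ways. At chr9:69174017-69174516 the difference went from -0.69 to 0.96, and at chr9:69362018-69362517 from 1.00 to -1.21 (adjusted p = 0.0909 and 0.0693). The first was lost without Hivep3-/- iNKT1 library 1 or 2, Hivep3-/- iNKT17 library 1, C57BL/6 iNKT1 library 2 or C57BL/6 iNKT17 library 1 or 2, with a range of 1.20 to 2.09 over the fits without 1 library. The second was lost without Hivep3-/- iNKT1 library 1 or 2, Hivep3-/- iNKT17 library 2, C57BL/6 iNKT1 library 1 or 2 or C57BL/6 iNKT17 library 1 or 2, with a range of -2.37 to -2.03 over the fits without 1 library. Maf, a bZIP factor of IL-17-producing cells, had no region with a called subset difference, and 1 of its regions turned (chr8:115701728-115702227). There the iNKT1 libraries had 2.17 and 1.93 in the knockout and 2.99 and 2.82 in C57BL/6, the iNKT17 libraries had 3.74 and 3.35 and 2.90 and 2.33, and the change was -1.78 ± 0.38 (adjusted p = 0.034). It was lost without Hivep3-/- iNKT1 library 2, Hivep3-/- iNKT17 library 1, C57BL/6 iNKT1 library 1 or C57BL/6 iNKT17 library 2, with a range of -2.06 to -1.50 over the fits without 1 library. Sox13 and Batf had 2 and 3 regions higher in iNKT17, and Stat3 had 2 regions higher in iNKT1. Ahr had none called in either genotype.

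The receptors and surface proteins of iNKT17 cells had 71 of 145 regions higher in iNKT17 (49.0%) and 4 higher in iNKT1 (2.76%) in the knockout. All regions tested had 9.83% and 9.48%. The C57BL/6 counts were 72 and 4, and the medians were -1.52 in the knockout and -1.43 in C57BL/6. Il23r, the IL-23 receptor chain that marked the subset, had 11 of 14 regions higher in iNKT17 in both genotypes. At its promoter (chr6:67491626-67492125) the knockout libraries had -4.05 and -2.37 in iNKT1 and 5.10 and 5.18 in iNKT17, and the C57BL/6 libraries had -0.94 and -2.39 and 5.01 and 4.86. The iNKT17 libraries of both genotypes lay far above every iNKT1 library, and the difference was -8.35 ± 0.76 (SE; limma adjusted p = 9.49e-07) with 1 knockout iNKT1 library at its lowest value. The intron region with the printed Il23r sequence had -7.43 in the knockout and -6.65 in C57BL/6. Il1r1, the receptor for IL-1, had 22 of 24 regions higher in iNKT17 in both genotypes. Its lead region chr1:40229971-40230470, which holds the printed ROR motif, had 5.31 and 5.26 in knockout iNKT17 and 5.27 and 5.26 in C57BL/6 iNKT17 libraries, against -4.05 and -3.79 and -3.12 and -0.67 in iNKT1.

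Blk, a Src-family kinase of B cells and IL-17-producing T cells, had 20 of 21 regions higher in iNKT17 in both genotypes, and the difference widened at 1 of them (chr14:63398823-63399322). There the iNKT1 libraries had -1.72 and -2.43 in the knockout and 0.36 and -1.01 in C57BL/6, and the iNKT17 libraries had 4.19 and 4.67 and 3.62 and 3.62. The difference went from -3.94 to -6.50 (adjusted p = 0.0828) and the change was lost without Hivep3-/- iNKT1 library 1 or 2, Hivep3-/- iNKT17 library 1 or 2, C57BL/6 iNKT1 library 1 or C57BL/6 iNKT17 library 1 or 2, with a range of -3.24 to -1.87 over the fits without 1 library. Ccr6, a chemokine receptor, had 5 of 6 regions higher in iNKT17, beside 3 in C57BL/6, and narrowed at a promoter region (chr17:8235832-8236331). Its iNKT17 libraries had 4.96 and 4.77 in the knockout and 4.90 and 4.85 in C57BL/6, and the iNKT1 libraries had -0.10 and -0.59 and -3.12 and -2.39. The difference went from -7.63, with 1 C57BL/6 iNKT1 library at its lowest value, to -5.21 (adjusted p = 0.0971), and the change was lost without Hivep3-/- iNKT1 library 1 or 2, Hivep3-/- iNKT17 library 1 or 2, C57BL/6 iNKT1 library 1 or C57BL/6 iNKT17 library 1 or 2, with a range of 2.06 to 2.79 over the fits without 1 library.

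Il7r, the IL-7 receptor chain, had 3 of 8 regions higher in iNKT17 in each genotype, with -4.47 ± 0.35 at chr15:9536025-9536524 in the knockout and -3.89 in C57BL/6. Il17re, a receptor chain for IL-17C, had 3 of 4. Tmem176a and Tmem176b, membrane proteins whose loci share regions, had 2 regions each higher in iNKT17, all kept. Near Ltb4r1, a leukotriene B4 receptor, a region at an Adcy4 promoter (chr14:55774092-55774591) had iNKT17 libraries at 3.99 and 3.49 in the knockout and 3.75 and 3.40 in C57BL/6. Its iNKT1 libraries were lower in the knockout, -0.10 and -0.39 against 1.49 and 1.21, and the difference widened from -2.22 to -3.98 (adjusted p = 0.0979). This change was lost without Hivep3-/- iNKT1 library 1 or 2, Hivep3-/- iNKT17 library 1, C57BL/6 iNKT1 library 1 or 2 or C57BL/6 iNKT17 library 1 or 2, with a range of -2.01 to -1.51 over the fits without 1 library. Il18r1, Itgb7 and Aqp3 had no called region in either genotype, and Itgae had 2 regions higher in iNKT1 in both.

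The effector cytokine genes of iNKT17 cells had 9 of 15 regions higher in iNKT17 (60.0%) and 0 higher in iNKT1 in each genotype. All regions tested in the knockout had 9.83% and 9.48%. The medians were -2.46 in the knockout and -3.04 in C57BL/6. At the Il17a promoter (chr1:20730489-20730988) the iNKT17 libraries had 5.83 and 5.59 in the knockout and 5.80 and 5.91 in C57BL/6, and all iNKT1 libraries lay between -4.05 and -3.12. At the Il17f promoter (chr1:20784117-20784616) the knockout libraries had -1.0 and -2.89 in iNKT1 and 6.40 and 6.34 in iNKT17, a difference of -8.31 ± 0.71 beside -8.61 in C57BL/6. Il22, a cytokine that acts on epithelia, had 6.14 and 6.21 in the knockout iNKT17 libraries and -4.05 and -3.79 in the iNKT1 libraries at chr10:118206480-118206979. At these 3 genes every iNKT17 library lay above every iNKT1 library in both genotypes.

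All 5 Il17a regions were higher in iNKT17 in both genotypes, and the difference narrowed at 2 of them, on either side of the gene. At chr1:20725552-20726051, 5.1 kb from the start site, which holds the Il17a sequence with a ROR motif, the iNKT1 libraries had -0.78 and -1.94 in the knockout, and both C57BL/6 iNKT1 libraries were at their lowest value. The iNKT17 libraries had 5.51 and 5.30 in the knockout and 5.63 and 5.58 in C57BL/6. At chr1:20738439-20738938 the iNKT1 libraries had -0.10 and -1.06 in the knockout while those of C57BL/6 were again at their lowest value, and the iNKT17 libraries had 3.55 and 4.08 and 4.20 and 3.52. The adjusted p of these changes was 0.0778 and 0.0658, and their fitted sizes of 2.29 and 2.92 depend on the lowest values. With a pseudocount of 1 they were 0.56 and 0.67 and were not called. The first was lost without Hivep3-/- iNKT1 library 1, Hivep3-/- iNKT17 library 1 or 2, C57BL/6 iNKT1 library 2 or C57BL/6 iNKT17 library 1 or 2, and the second was lost without Hivep3-/- iNKT1 library 1, Hivep3-/- iNKT17 library 1, C57BL/6 iNKT1 library 2 or C57BL/6 iNKT17 library 1 or 2. Csf2, which encodes GM-CSF, had 1 region higher in iNKT17 in the knockout (chr11:54236934-54237433, -2.46 ± 0.23) and none in C57BL/6, and Ccl20 had no region in the table.

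Around genes of the iNKT2 subset 18 of 129 regions were higher in iNKT1 (14.0%) and 15 in iNKT17 (11.6%) in the knockout, beside 9.48% and 9.83% of all regions tested. The C57BL/6 counts were 20 and 5, and the list as a whole lay near the background in the knockout. Il6ra, the IL-6 receptor chain, had 5 of 18 regions higher in iNKT17 in the knockout and none in C57BL/6, and 3 of its regions turned. At chr3:89906207-89906706 the iNKT1 libraries had 2.79 and 2.52 in the knockout and 3.51 and 3.33 in C57BL/6, and the iNKT17 libraries had 4.24 and 4.16 and 3.55 and 3.21. The C57BL/6 subsets overlapped and the knockout subsets did not, and the difference went from 0.04 to -1.55 (-1.59 ± 0.24 for the change, adjusted p = 0.00642). It was lost without Hivep3-/- iNKT1 library 2, Hivep3-/- iNKT17 library 1, C57BL/6 iNKT1 library 1 or C57BL/6 iNKT17 library 2, with a range of -1.76 to -1.42 over the fits without 1 library. Il17rb, the IL-25 receptor chain, had 5 of 8 regions higher in iNKT17 in the knockout and 1 in C57BL/6. Its widened region chr14:30017742-30018241, which lies in a Chdh intron, had iNKT1 libraries at 1.37 and 1.54 in the knockout and 2.65 and 2.82 in C57BL/6, with a difference of -2.34 and -0.70 (adjusted p = 0.0113). It was lost without Hivep3-/- iNKT1 library 1, C57BL/6 iNKT1 library 2 or C57BL/6 iNKT17 library 2, with a range of -1.81 to -1.48 over the fits without 1 library.

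The Il4 and Il13 loci, which share regions, had 5 regions each higher in iNKT1 in both genotypes, all kept. At chr11:53625229-53625728, 6.81 kb from the Il4 start site, the knockout libraries had 6.49 and 6.36 in iNKT1 and 2.30 and 2.95 in iNKT17. The Il5 promoter (chr11:53719638-53720137) went the other way and was kept, with 0.40 and 0.55 in iNKT1 and 6.24 and 6.16 in iNKT17 libraries of the knockout and a difference of -5.73 ± 0.27 beside -5.98. Lef1 and Slamf6 each had a widened region with a larger difference toward iNKT1. The Lef1 region chr3:131115996-131116495 had -1.52 and -1.06 in the knockout iNKT17 libraries and 0.49 and 0.64 in C57BL/6, with the iNKT1 libraries of both genotypes between 2.32 and 2.45 (adjusted p = 0.0393 for the change). It was lost without Hivep3-/- iNKT1 library 1 or 2, Hivep3-/- iNKT17 library 1, C57BL/6 iNKT1 library 1 or C57BL/6 iNKT17 library 2, with a range of 1.55 to 2.01 over the fits without 1 library. The Slamf6 region chr1:171961502-171962001 had 2.73 and 3.04 in the knockout iNKT1 libraries and 1.11 and 1.39 in C57BL/6 (adjusted p = 0.0478), and it was lost without Hivep3-/- iNKT1 library 1 or 2, C57BL/6 iNKT1 library 1 or C57BL/6 iNKT17 library 1 or 2, with a range of 1.95 to 2.26 over the fits without 1 library.

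Among genes used by all iNKT cells, 24 of 205 regions were higher in iNKT1 and 24 in iNKT17 in the knockout (11.7% each), which is near the 9.48% and 9.83% of all regions tested. The C57BL/6 counts were 34 and 14. Zbtb16 carried most of the iNKT17 side, with 19 of 73 regions higher in iNKT17 and 0 higher in iNKT1, beside 9 and 0 in C57BL/6. At chr9:48655713-48656212, in an exon, the iNKT1 libraries had 0.70 and 0.76 in the knockout and 2.41 and 1.74 in C57BL/6, and the iNKT17 libraries had 3.72 and 3.38 and 2.92 and 2.98. The knockout iNKT1 libraries lay lowest of the 4 groups, and the difference went from -0.88 to -2.82 (-1.94 ± 0.35 for the change, adjusted p = 0.0145). The change was called without each library in turn and not with a pseudocount of 1 or 5. Another 2 Zbtb16 regions widened and 1 turned, with changes of -1.82, -1.92 and -1.80. The first was called only without Hivep3-/- iNKT1 library 2 and the second only without Hivep3-/- iNKT17 library 1 among the fits without 1 library that tested them, and the third was lost without Hivep3-/- iNKT1 library 1, Hivep3-/- iNKT17 library 1, C57BL/6 iNKT1 library 1 or C57BL/6 iNKT17 library 1, with a range of -2.16 to -1.43 over the fits without 1 library. Cd3e, Cd3g, Cd3d, Zap70 and Lck, parts of the antigen receptor and its kinases, had no called region in the knockout. Cd2, Ptprc and Cd5 had 12, 7 and 5 regions higher in iNKT1.

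A set of 6 genes that the study names for its knockout (Hivep3, Zbtb16, Cd247, Ccr9, Drosha and Hdac7) had 13 of 153 regions higher in iNKT1 (8.50%) and 22 higher in iNKT17 (14.4%), beside 9.48% and 9.83% of all regions tested and counts of 13 and 12 in C57BL/6. These shares lie near the background. The study named these genes from its own data, and Cd247, Ccr9 and Drosha also from this ATAC-seq. They are therefore not independent evidence of a direction. Drosha, the nuclease that starts microRNA processing, had no called region in the knockout and 3 of its regions were higher in iNKT1 in C57BL/6. At chr15:12895447-12895946 the libraries had 5.06 and 5.01 in knockout iNKT1, 5.95 and 6.00 in knockout iNKT17, 6.32 and 6.31 in C57BL/6 iNKT1 and 6.67 and 6.63 in C57BL/6 iNKT17. All knockout libraries lay below all C57BL/6 libraries, and the change in the subset difference of -0.61 ± 0.10 had an adjusted p of 0.0117 without reaching 3-fold.

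The sort markers chose the cells and are given as a check only. Il2rb (CD122) had 1 region and Izumo1r had 5 regions higher in iNKT1, and Icos and Sdc1 (CD138) had 9 and 7 higher in iNKT17. Few regions lay near markers of other cells, so their shares rest on small counts, but the shares were above those of all regions tested. In the knockout 20% of B cell, 22.2% of myeloid, 25% of double-positive thymocyte and 14.3% of thymic epithelial regions were higher in iNKT1, beside 9.48% of all. None of these regions was higher in iNKT17. Of the regulatory T cell regions 22.6% were higher in iNKT17 and 3.23% in iNKT1, beside 9.83% and 9.48%. Of 7 B cell genes 5 had a tested region, with 4 of 20 regions higher in iNKT1 (3 of them at Ebf1) and 0 higher in iNKT17, and Ms4a1 and Blnk had no region. Of 7 myeloid genes 4 had a tested region, with 2 of 9 higher in iNKT1, at Itgam (CD11b, which NK cells also carry) and Mpeg1, and Csf1r and Adgre1 had no region. Of 8 regions near markers of double-positive thymocytes 2 were higher in iNKT1, both at Arpp21, and Rag1 and Cd8b1 had no region. Of 7 regions near thymic epithelial genes 1 was higher in iNKT1. The 31 regions near regulatory T cell genes had 7 higher in iNKT17 and 1 higher in iNKT1, beside 5 and 1 in C57BL/6, and 4 of the 7 were at Foxp3. Their 8 promoter regions summed to 265 to 277 normalized insertions per kilobase in knockout iNKT17, 220 to 232 in C57BL/6 iNKT17, 183 to 190 in knockout iNKT1 and 184 to 207 in C57BL/6 iNKT1 libraries. The part of any of these other cells in the results was not tested.

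**Figure D3:**
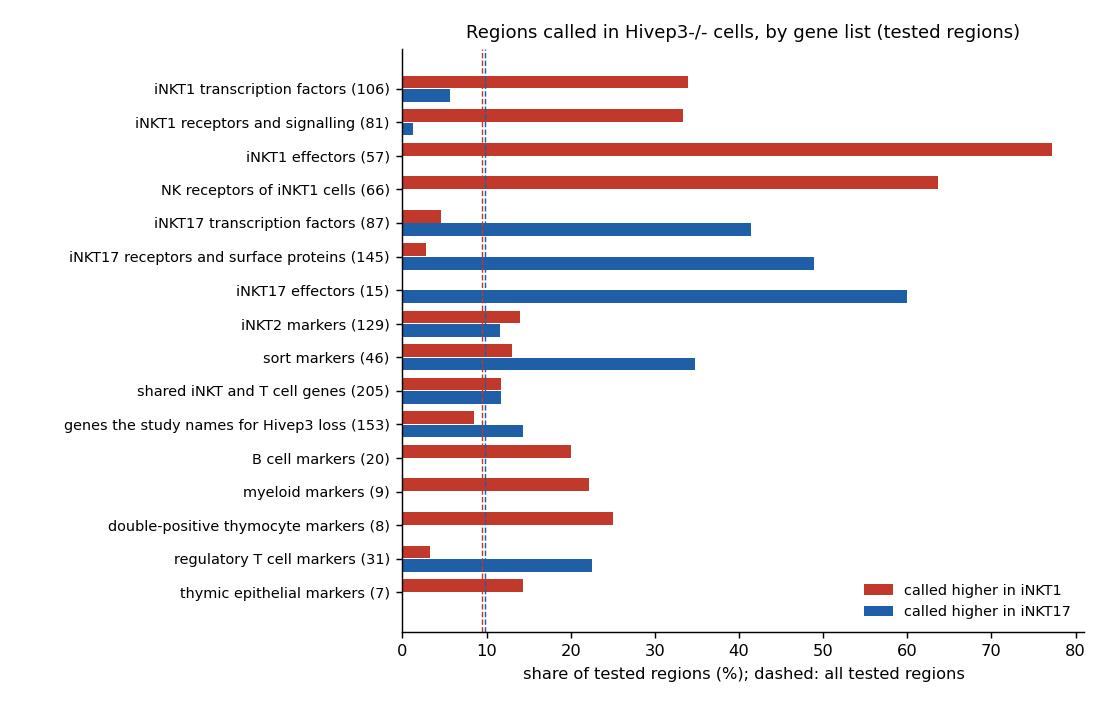
Share of tested regions (percent, horizontal) called higher in iNKT1 or in iNKT17 in Hivep3-/- cells, for each gene list (vertical). Dashed lines mark the shares over all regions tested in the knockout. Lists of iNKT1 genes have the longer bars for iNKT1, up to 77.2% for the effectors. Lists of iNKT17 genes have them for iNKT17, up to 60.0% for the effectors.

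The regions with a changed difference leaned to 1 side. Of the 860 regions, 635 had moved toward iNKT1 in the knockout and 225 toward iNKT17. No library of these 4 groups was at its lowest value in 773 of them, and the X chromosome held 12 (1.07% of its 1121 tested regions, beside 1.42% over all). Narrowed regions were mostly those that were higher in iNKT17 in C57BL/6 mice, 253 of 359. In all 253 the iNKT1 mean was higher in the knockout than in C57BL/6, by a median of 1.74, and in 228 the larger move was in iNKT1. The iNKT17 median change there was -0.35. Of the 290 turned regions 249 had been higher in iNKT17 in C57BL/6, and iNKT1 was higher in the knockout in 248 of them, by a median of 1.58.

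The other groups were smaller. The 106 narrowed regions that were higher in iNKT1 in C57BL/6 had a higher iNKT17 mean in the knockout in 105 cases, by a median of 1.54, and a median iNKT1 change of -0.73. The 133 regions that widened toward iNKT1 had a higher iNKT1 mean in the knockout in 128, by a median of 1.48, with a median iNKT17 change of -0.79. In the 78 that widened toward iNKT17 the iNKT1 mean was lower in the knockout in all 78, with a median change of -1.97 beside 0.17 in iNKT17. The chosen direction of each group fixes part of these signs, so they describe the regions and are no test.

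These counts rested on single libraries more than the subset difference did. The widened count was 104 and 116 without Hivep3-/- iNKT1 library 1 or 2, 89 without C57BL/6 iNKT1 library 1, and 123 and 113 without C57BL/6 iNKT17 library 1 or 2. The narrowed count was 186 and 151 without Hivep3-/- iNKT1 library 1 or 2. The turned count was 145 without Hivep3-/- iNKT1 library 2 and 169 without C57BL/6 iNKT1 library 1. With the library number as a block the widened count was 329. Of the 41 changes called at named regions, 15 were called with a pseudocount of 1, at Adamts20, Agpat4, Egln3, Fanci, Fgf2, Foxo1, Ifng, Man1c1, Ppic, Rag2, Runx3, Smim15, Snx31, Tox2 and 1 of the 2 Rora regions.

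Among regions with no library at its lowest value, the 5 widened regions with the largest change were named by the gene with the nearest start site, which need not be the gene they act on. The Tox2 region chr2:163298916-163299415, in an intron of this HMG-box factor, holds the printed Runt sequence. It had 4.28 and 4.41 in knockout iNKT1, -0.41 and 0.19 in knockout iNKT17, 1.82 and 2.30 in C57BL/6 iNKT1 and 1.23 and 1.83 in C57BL/6 iNKT17 libraries. Both knockout iNKT1 libraries were higher and both knockout iNKT17 libraries were lower than those of C57BL/6, and the difference grew from 0.53 to 4.45 (3.92 ± 0.44 for the change, limma adjusted p = 0.00128). It was called in all 16 settings that tested it. Near Ppic, which encodes a cyclophilin, an exon region had 2.91 and 3.25 in knockout iNKT1 and -1.52 and -1.06 in knockout iNKT17 libraries, against 1.20 and 0.91 and 0.49 and 1.20 in C57BL/6. The Man1c1 region chr4:134709843-134710342 had 3.46 and 3.58 in knockout iNKT1 libraries and values from -0.78 to 0.97 in the other 6 iNKT1 and iNKT17 libraries. The Adamts20 region chr15:94235029-94235528, 169 kb from that gene's start, had 3.59 and 3.66 in knockout iNKT1 libraries and at most 1.60 in the other 6 iNKT1 and iNKT17 libraries. The fifth lay toward iNKT17, 251 kb from Mtx2 (chr2:75119583-75120082), with -3.12 and -3.79 in knockout iNKT1 and 1.02 and 0.71 in C57BL/6 iNKT1 libraries, and 5.52 and 5.56 against 6.15 and 6.09 in iNKT17. With a pseudocount of 1 the Mtx2 change fell from -3.75 to -0.80 and was not called.

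Agpat4, an acyltransferase of lipid synthesis, had the narrowed region with the largest change among those with no library at its lowest value. With Coro2a it had the most narrowed regions of any gene, 4 among 7 and 4 among 35 at the loci. Of all regions tested for a change 0.593% were narrowed. At chr17:12162804-12163303 the knockout iNKT1 libraries had 2.03 and 2.39 and the C57BL/6 iNKT1 libraries -1.72 and -2.39, while the iNKT17 libraries had 3.97 and 4.32 and 4.15 and 4.20. The region stayed higher in iNKT17, and the difference went from -6.23 to -1.94 (4.29 ± 0.45 for the change, adjusted p = 0.00105). Egln3, an oxygen-sensing prolyl hydroxylase, had 3.23 and 2.99 in knockout iNKT1 and -1.72 and -0.67 in C57BL/6 iNKT1 libraries at chr12:54198250-54198749, with iNKT17 libraries between 3.95 and 4.26, and the difference was no longer called (-1.13 against -5.19). Snx31 had the same order at chr15:36521300-36521799, with -0.38 in the knockout and -4.39 in C57BL/6. Fanci and Smc6, both in DNA repair, narrowed from the iNKT1 side. The Fanci region chr7:79434657-79435156 had iNKT1 libraries at 1.33 and 1.33 in the knockout and 3.39 and 3.00 in C57BL/6, and the Smc6 region chr12:11281533-11282032 had iNKT17 libraries at 0.19 and 0.19 and -3.12 and -2.29. The Smc6 change was lost without Hivep3-/- iNKT1 library 2 (-3.13) and with a pseudocount of 1, where it was -1.45.

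With the same limit, the 3 turned regions with the largest change lay near Smim15, Foxo1 and Fgf2. The region 425 kb from Smim15 (chr13:107619448-107619947) had 4.52 and 4.73 in knockout iNKT1 and 1.82 and 2.39 in knockout iNKT17 libraries, and -0.11 and 1.78 against 3.04 and 3.71 in C57BL/6. It was the 1 region called in opposite directions, with 2.52 in the knockout and -2.54 in C57BL/6 (5.06 ± 0.72 for the change, adjusted p = 0.00461). The region 104 kb from Foxo1, a factor of quiescent and naive T cells, had 1.96 and 2.06 in knockout iNKT1 and 1.59 and -0.10 in knockout iNKT17 libraries, and -0.11 and 0.49 against 3.12 and 3.49 in C57BL/6 (chr3:52371618-52372117). In an intron of Fgf2, a growth factor gene, chr3:37370319-37370818 had 2.61 and 2.89 in knockout iNKT1 libraries and -0.42 and -0.67 in C57BL/6 iNKT1 libraries. The downstream Ifng region (chr10:118454046-118454545) lay 13.2 kb from the start site. It had 1.88 and 1.57 in knockout iNKT1 and 1.74 and 1.23 in knockout iNKT17 libraries. The C57BL/6 libraries had -3.12 and -1.01 in iNKT1 and 3.19 and 2.65 in iNKT17. The C57BL/6 subsets stood apart, with 1 iNKT1 library at its lowest value, and the knockout subsets overlapped. The adjusted p of the change was 0.00847.

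**Figure D4:**
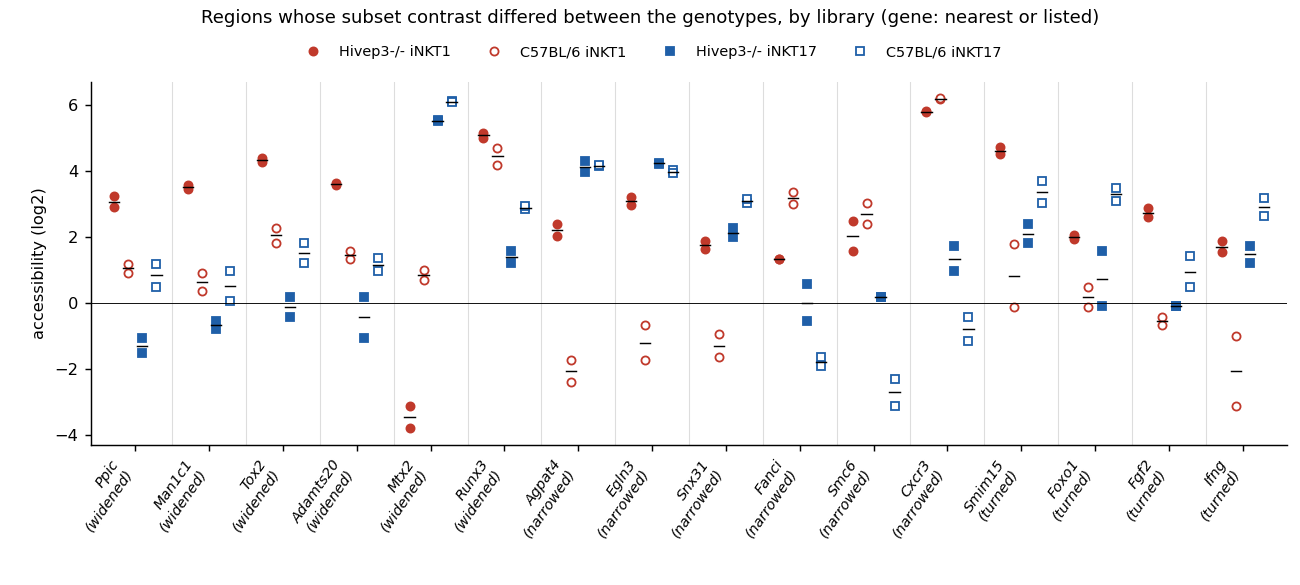
Regions with a changed subset difference, with 1 point per library on the log2 scale of normalized insertions per kilobase (vertical) for iNKT1 and iNKT17 libraries of both genotypes (horizontal). In the widened panels the knockout groups lie farther apart than the C57BL/6 groups, and in the narrowed panels they lie closer. In the turned panels the order of the group means is reversed, though at Ifng the knockout libraries of the subsets overlap.

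Beyond the lists, the largest differences in the knockout with no library at its lowest value were as follows. Toward iNKT1 they lay near Smndc1 (7.32 ± 0.36), Ttll11 (7.25 ± 0.82), Pik3r6 (7.21 ± 0.57) and Srbd1 (7.0 ± 0.33), besides the Stat4 region above. Pik3r6, a regulatory subunit of PI3Kγ, had 6.99 and 7.13 in knockout iNKT1 and -1.52 and 1.23 in knockout iNKT17 libraries, and 6.48 and 6.87 against 0.06 and 0.20 in C57BL/6. Toward iNKT17 they lay near 4930519G04Rik (-10.79 ± 0.60), Pla2g2d (-9.90 ± 0.71), Furin (-9.77 ± 0.82), Fam50b (-9.63 ± 0.61) and Synm (-9.44 ± 0.85). Near Furin, a proprotein convertase, the knockout libraries had -3.12 and -2.43 in iNKT1 and 6.83 and 7.15 in iNKT17. All 9 of these regions were called in the same direction in C57BL/6, and no change was called. Near Pla2g2d, Furin, Fam50b and Synm 1 C57BL/6 iNKT1 library was at its lowest value. Near 4930519G04Rik, Pla2g2d and Synm knockout iNKT1 library 2 had -4.05, close to its lowest value of -4.31. The sizes toward iNKT17 thus depend on low values.

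By the number of called regions, Inpp4b, a phosphoinositide phosphatase, led the protein-coding genes on the iNKT1 side with 28 of 44 regions (27 in C57BL/6) after the readthrough gene Gm20388, whose annotation runs over a stretch with 377 regions and holds other genes. Rptor, a part of mTORC1, had 18 of 28, 2900026A02Rik 17 of 24 and Lrrk1 16 of 22. Such counts grow with the number of regions a gene holds, and all regions tested had 9.48% higher in iNKT1 and 9.83% higher in iNKT17. On the iNKT17 side Il1r1 had 22 of 24, Plcb4, a phospholipase, 21 of 23, Blk 20 of 21 and Zbtb16 19 of 73. Etv6, an ETS factor, had 18 of 23, Rora 18 of 41 and Igf1r, the IGF-1 receptor, 16 of 20. Tmod1 had the most widened regions with 4 among 12 at its locus, and Zbtb16 followed with 3 among 86. Of all regions tested for a change 0.349% were widened.

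Regions that differed between the subsets were seldom at promoters. A promoter was within 1000 bp of a start site, and 39.8% of the regions tested were at one. The share was 14.3% among regions higher in iNKT1 and 15.2% among those higher in iNKT17 in the knockout. Introns held 45.1% and 46.6% of these, against 31.4% of all. The widened, narrowed and turned regions had promoter shares of 11.4%, 12.0% and 13.4%.

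Motifs were counted as exact matches on either strand of the 500 bp region. The T-box motif (AGGTGTGA) was in 2.90% of all regions tested, in 9.10% of those higher in iNKT1 and in 2.12% of those higher in iNKT17 in the knockout, and in 9.49% of those higher in iNKT1 in C57BL/6. The ROR motif (TAGGTCA or TGGGTCA) was in 12.7%, 11.0% and 33.1% in the knockout, and in 31.3% of the C57BL/6 iNKT17 regions. The Runt motif (AACCACA) was in 17.4%, 27.3% and 22.2%. The T-box share of the iNKT1 regions and the ROR share of the iNKT17 regions thus differed by under 2 percentage points between the genotypes. Most of these regions were called in both genotypes, so their shares had to lie close. Among iNKT1 regions called only in the knockout or only in C57BL/6, T-box matches were in 4.46% and 6.57%. Among such iNKT17 regions, ROR matches were in 19.3% and 17.2%. The E-box (CAGGTG) was in 34.7% of all regions tested. It shares bases with the T-box motif, and 952 of the 1717 regions with a T-box motif held both.

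Among the regions with a changed difference, T-box matches were in 9.78% of the 225 that moved toward iNKT17 and in 3.62% of the 635 that moved toward iNKT1. Runt matches were in 15.1% and 31.2%, bZIP matches (TGACTCA) in 12.9% and 24.1% beside 11.4% of all regions tested, and TCF matches (ATCAAAGG or TTCAAAGG) in 6.67% and 12.1% beside 4.92%. The NF-κB motif was in 6.67% and 4.57%, beside 8.69% of all regions tested. Other motifs searched were ETS (ACAGGAAGT or ACCGGAAGT), NFAT (ATTTTCCA or TTTTTCCA), Egr (GCGTGGGCG or GCGTGGGTG), Maf (TGCTGAC, which can overlap the bZIP motif) and AGATAAG, the element of the Gata factors. A match describes the letters of a region and says nothing of binding.

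**Figure D5:**
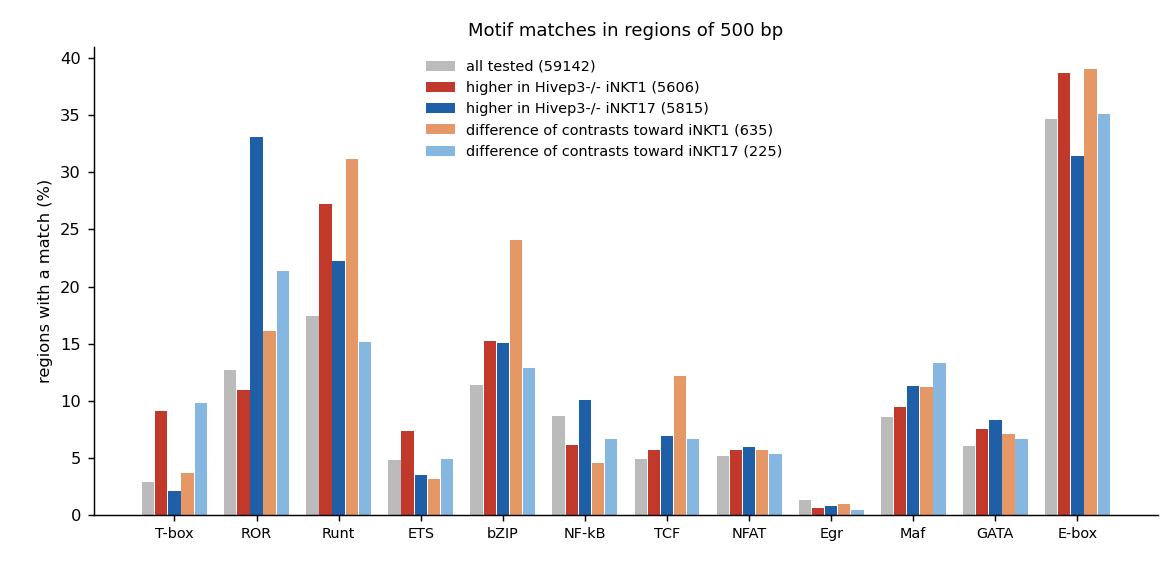
Share of regions with an exact match to each of 12 motifs (percent) among all regions tested, the regions higher in iNKT1 or iNKT17 in Hivep3-/- cells, and those that moved toward iNKT1 or iNKT17. T-box matches stand out in the regions higher in iNKT1 (9.10%) and ROR matches in those higher in iNKT17 (33.1%).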

How the data were processed

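The ATAC-seq values of the sorted thymic subsets of both genotypes were used as the authors deposited them. According to the study's methods, reads were trimmed with Trimmomatic (version 0.39 in the submitters' processing notes), mapped to mm10 and run through the ENCODE pipeline. The peak sets were combined by chromVAR into fixed 500 bp regions, with the Y chromosome and blacklisted stretches left out, and insertions were counted in each region. The deposited values are log2 insertions per kilobase that the authors normalized with voom. The linear sums of the libraries are nearly equal, so the depth is unknown, and all 12 columns were mapped to a library.

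Linear means of at least 5 defined accessible regions. The log2 values of all 12 libraries were fitted with limma 3.58.1 in R 4.3.3 as 6 group means, with a variance trend and Benjamini-Hochberg adjustment over all regions of a contrast. There were 6 residual and 7.17 prior degrees of freedom. Calls needed an adjusted p under 0.1 and a 3-fold difference, as in the study. Voom weights could not be rebuilt from the values. In a test on simulated data with a log2 change of 3 added, the knockout contrast recovered 398 of 400 changed regions among 53893 with 8 false calls, and the interaction 188 of 200 among 55163 with 12. Other steps used Python 3.11.15, numpy 2.4.6, pandas 2.3.3, scipy 1.17.1, pysam 0.24.0 and matplotlib 3.10.9.

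Regions belonged to a gene when they lay in its body or within 10 kb of it (GENCODE vM21, GRCm38.p6, which is mm10), and 1-based coordinates are given. Named were all 132 genes of 16 lists, the 5 largest called differences in each direction, the 5 largest widened and narrowed and the 3 largest turned regions with no library at its lowest value, the 8 genes in each direction with most called regions and the 5 genes with most widened and narrowed regions. Some listed items are not reported here. The members and lists were chosen with earlier results of these data known. A mouse number in the titles is shared by the subsets of a genotype, and the deviations of same-numbered iNKT1 and iNKT17 libraries correlated with 0.162 in Hivep3-/- and 0.139 in C57BL/6 mice. The alternatives were other accessibility levels, pseudocounts of 1 and 5, a 2-fold threshold, no variance trend, a renewed quantile normalization, the library number as a block, the knockout libraries alone, a wider locus window and leaving out each library in turn.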

Additional observations from a re-analysis of the deposited data

Results flagged for a closer look

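The regions below stood out because the difference between iNKT1 and iNKT17 changed between Hivep3-/- and C57BL/6 mice by the limma test of the interaction, among the regions of listed genes and those with the largest changes. Each value is the knockout difference minus the C57BL/6 difference on the log2 scale. A positive value means that the knockout moved toward iNKT1. The changes near effector and receptor genes of the iNKT17 subset were 2.29 and 2.92 at Il17a (with both C57BL/6 iNKT1 libraries at their lowest value in each, so that the sizes depend on it and were 0.56 and 0.67 with a pseudocount of 1), 2.43 at Ccr6, -2.56 at Blk and -1.76 at Ltb4r1. For factors of that subset they were 1.65 and -2.20 at Rora and -1.78 at Maf. Near iNKT1 genes they were 5.22 at Ifng (where 1 C57BL/6 iNKT1 library was at its lowest value), -2.52 at Cxcr3, -2.40 at Fasl, 2.13 at Runx3 and -1.65 at Stat4.

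Among iNKT2 and shared genes the changes were -1.71, -1.59 and -1.68 at Il6ra, -1.64 at Il17rb, 2.10 at Slamf6, 1.78 at Lef1, -2.14 at Ccr9 and -1.94, -1.82, -1.92 and -1.80 at Zbtb16. Hivep3 itself had 1.74, and the sort marker Sdc1 had -1.80. Among markers of other cells the changes were 1.65 at Pax5 and 2.64 at a region near Rag2 that lies in an intron of B230118H07Rik. At the Pax5 region the iNKT1 libraries had 4.11 and 4.09 in the knockout and 2.58 and 2.40 in C57BL/6, and the iNKT17 libraries of both genotypes lay between 4.12 and 4.89.

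Among regions with no library at its lowest value, the largest changes without regard to lists were 4.16 at Ppic, 4.07 at Man1c1, 3.92 at Tox2, 3.76 at Adamts20 and -3.75 at Mtx2 for widened regions. For narrowed regions they were 4.29 at Agpat4, 4.06 at Egln3, 4.01 at Snx31, -3.65 at Fanci and -3.58 at Smc6. For turned regions they were 5.06 at Smim15, 4.38 at Foxo1 and 4.35 at Fgf2. Only the Tox2, Foxo1 and Smim15 changes were called under every setting that tested them. Of the 41 regions 24 lost the call without at least 1 library, and 15 were called with a pseudocount of 1. What moved with these changes was not tested.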

How the results depend on the processing

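The named knockout differences kept their direction under the alternatives tried, and the number of calls depended on the level and the threshold. With a linear mean of at least 20 there were 2102 regions higher in iNKT1 and 2393 higher in iNKT17, with 2416 kept, 66 widened, 135 narrowed and 27 turned, since fewer regions were tested. A pseudocount of 1 gave 7205 kept and 184 narrowed. A pseudocount of 5, which shrinks low values, gave 1966 and 2583 regions, with 13 widened, 7 narrowed and 16 turned. A 2-fold threshold gave 9021 regions higher in iNKT1, 418 widened, 738 narrowed and 501 turned. Without 1 library the counts were 5514 to 5734 for iNKT1, 5743 to 5911 for iNKT17, 3579 to 4027 kept, 89 to 310 widened, 151 to 439 narrowed and 145 to 330 turned, and the cause was not tested. A locus window of 50 kb gave 639 called regions at the named genes against 411 with 10 kb.

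With the replicate block, which takes the mouse number as the pairing, 329 regions were widened, and the counts of 5608, 5816, 4689 kept, 528 narrowed and 328 turned stayed within 1.5 times. All 860 changed regions and all knockout calls passed under the block.

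Of 127 named knockout differences 99 were called, and 70 were called under every setting that tested them. The Etv5 difference lost the call without Hivep3-/- iNKT17 library 2 (1.17) and the Krt8 difference without Hivep3-/- iNKT1 library 2 (1.48). The changes were less stable: 414 of the 860 were also called with a pseudocount of 1, 31 with a pseudocount of 5, and 355 to 635 without 1 library. With a pseudocount of 5 the changes at Fasl and Mtx2 reversed sign to 0.0595 and 0.106, and the cause was not tested beyond that construction. The self-test made calls at 2 libraries a group. The coarse low values of the knockout iNKT17 libraries limit differences against regions that are closed there.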

Other observations

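The iNKT2 libraries took no part in the comparison, and their levels at the changed regions are given as values. In the 253 narrowed regions that were higher in iNKT17 in C57BL/6 mice, the median of the iNKT2 means was 2.89 in Hivep3-/- and 3.00 in C57BL/6, beside 2.34 and 0.58 in iNKT1 and 3.59 and 3.92 in iNKT17 cells. In the 249 turned regions of the same side it was 3.18 and 3.55, beside 3.11 and 1.52 in iNKT1. In the 133 regions that widened toward iNKT1 the iNKT2 median was 2.16 and 2.87, and in the 78 that widened toward iNKT17 it was 3.01 and 2.85. At the Tox2 region the iNKT2 libraries had 2.34 and 2.70 in the knockout and 4.44 and 4.79 in C57BL/6, and at the Zbtb16 exon region they had 3.57 and 3.71 and 4.21 and 4.19.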
